A study of Mus musculus with 2 samples.

Results

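Neutrophils were a rare cell type in dissociated optic nerves of mice with Nf1 optic glioma. They were taken as barcodes with at least 20 unique molecular identifiers (UMIs, counts of distinct captured RNA molecules) of S100a8 and S100a9 together and at least 2 of Retnlg, Csf3r and Cxcr2 together. Only barcodes with 500 to 5000 detected genes, 500 to 20000 UMIs and at most 5% mitochondrial UMIs were considered. By this rule 113 of 25652 kept cells were neutrophils, which is 0.441% with an exact Clopper-Pearson 95% interval from 0.363 to 0.529. Library FMC_new held 110 of them among 16818 kept cells (0.654%, 0.538 to 0.788), and library C-ON held 3 among 8834 (0.0340%, 0.00700 to 0.0992). All intervals here and below cover counting error only.

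Each library was a pool of optic nerves from 10 Nf1OPG mice aged 12 weeks, sequenced with a 5′ droplet kit after removal of debris and myelin. Nf1OPG mice carry a mutant and a floxed Nf1 allele (Nf1 flox/mut) and GFAP-Cre on a C57BL/6 background, and the GFAP promoter limits deletion of the floxed allele to the GFAP lineage. C-ON is titled control and FMC_new is titled FMC new, and the sources used here do not say how the pools differed. Both libraries carry 1 genotype label, there was no Nf1 wild-type library, and each pool is 1 sample. No test between groups was therefore possible, and values are given per library. The labels also describe a separate collection of meningeal dura without assigning it to either library.

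Neutrophils are short-lived granulocytes that are made in bone marrow and reach tissue from the blood. They carry preformed granules of antimicrobial proteins, follow chemokines and formyl peptides through G protein-coupled receptors, and release interleukin 1. Granule genes are transcribed in a fixed order during maturation, first those of primary granules, then those of secondary granules and later those of gelatinase granules, so granule transcripts mark how far a cell has matured. Their RNA content is low.

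The total count was 129113325 UMIs over 21341 barcodes in FMC_new and 85101211 over 10845 barcodes in C-ON. RNA spread over all classes differed between the libraries. The sources used here do not say whether pituitary tissue was taken with the nerves of FMC_new. Gh, the growth hormone of the anterior pituitary, had a UMI in all 110 neutrophils of FMC_new, with a median of 11 UMIs per cell, and in 99.9% of T cells there with a median of 13. No C-ON neutrophil had a Gh UMI. At least 1 alarmin UMI was found in 21.1 to 23.2% of classical monocytes, microglia, T cells and oligodendrocytes of FMC_new, and in 0 to 0.0164% of these classes in C-ON. The libraries shared 296 barcode sequences, 188 of them among kept cells, and none of these was a neutrophil.

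The cells had little RNA. The median neutrophil of FMC_new had 2869 UMIs (lowest 1128, highest 18122) and 1088.5 genes, compared with 4676 UMIs over all kept cells of that library and 8048 in classical monocytes. The 3 neutrophils of C-ON had 2031, 2274 and 1828 UMIs, against a median of 6810.5 over the kept cells. The median mitochondrial share was 0.368% in FMC_new and the highest was 2.36%. All FMC_new neutrophils together gave 393326 UMIs, where 1 UMI equals 2.54 CPM (the gene's UMIs divided by those of the class and scaled to a common total), whereas those of C-ON gave 6133, where 1 UMI equals 163 CPM.

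The rule genes are given as a description, because they chose the cells. S100a8 and S100a9, the subunits of calprotectin, a calcium- and zinc-binding alarmin, together made up 14.1% of all neutrophil UMIs in FMC_new and 22.5% in C-ON. The lowest alarmin sum was 20, the median 303 and the highest 3177. Retnlg, a resistin-like secreted protein, was found in 107 of the 110 cells with a median of 51 UMIs. Csf3r, the receptor for granulocyte colony-stimulating factor, was found in 64 cells, and Cxcr2, the receptor for Cxcl1 and Cxcl2, in 74, each with a median of 1 UMI. Just inside the thresholds were 6 cells with 20 to 49 alarmin UMIs and 7 cells with 2 or 3 receptor UMIs. Just outside were 16 kept cells of FMC_new with 10 to 19 alarmin UMIs and at least 2 receptor UMIs, of which 15 had Retnlg.

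Genes that the rule did not use were checked against the label. Ly6g, the surface protein bound by the neutrophil antibody 1A8, was found in 62 of 110 neutrophils (56.4%) and in no classical monocyte, and neutrophils held 80.9% of its UMIs in FMC_new. Neutrophils were 0.654% of the cells there, yet held 90.9% of Mmp8 UMIs and 77.0% of Mmp9 UMIs. They held less of other granule genes, with 51.4% of Cd177, 49.8% of Ngp, 48.0% of Ltf, 47.6% of Lcn2 and 44.7% of Camp UMIs. In C-ON the 3 neutrophils held all 15 Mmp8 UMIs but 8.26% of Mmp9 UMIs. Mast cell, basophil and eosinophil markers were at or near 0 UMIs, with 7 of 10 listed genes undetected, including Mcpt8, Cpa3, Epx and Prg2, and Siglecf had 1 UMI. After thinning every cell to 1000 UMIs to equalise depth, Wfdc21 was seen in 66.4% of neutrophils and Lcn2 in 77.3%, and in none of the 69 classical monocytes. Thinning left out 5 microglia, 89 T cells and 66 oligodendrocytes of FMC_new with fewer UMIs, and no neutrophil or monocyte.

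**Figure D1:**
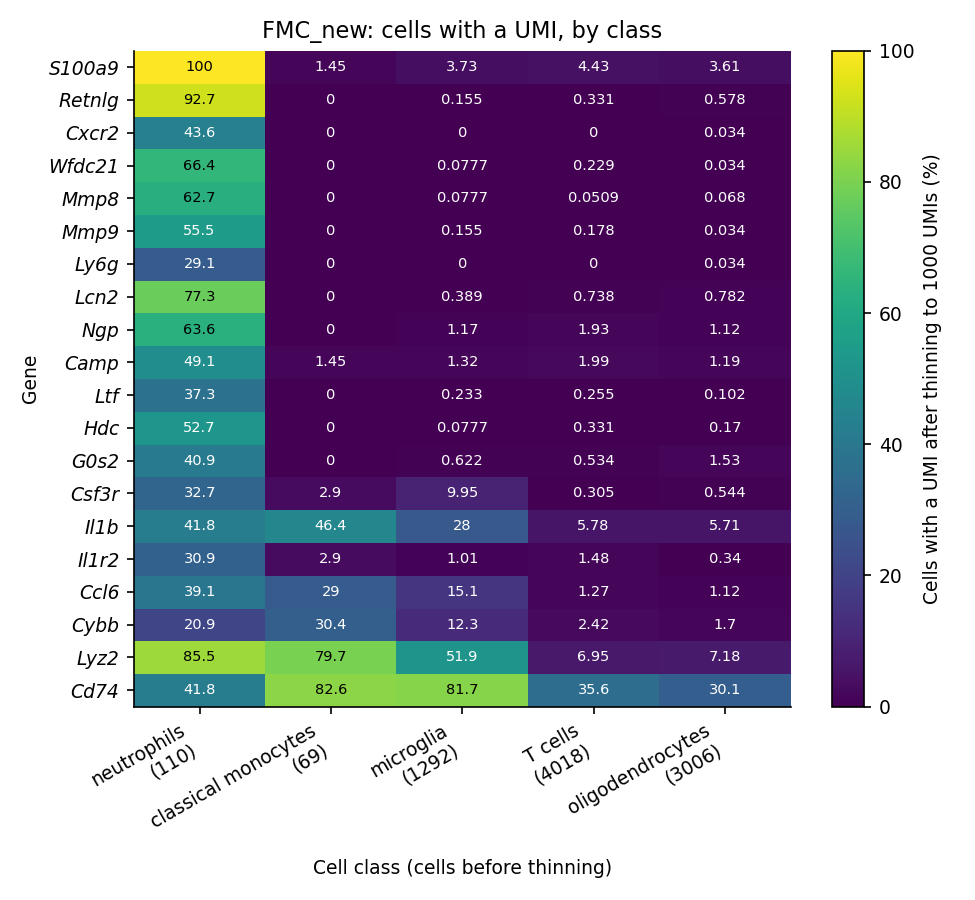
Share of cells of FMC_new with at least 1 UMI of each gene, after each cell was thinned to 1000 UMIs, for neutrophils and 4 other classes. Rows are genes, columns are classes with their cell number before thinning, and color and printed values are percent. Wfdc21, Mmp8 and Mmp9 were seen in 55.5 to 66.4% of neutrophils and in under 1% of each other class, while Il1b was seen in 41.8% of neutrophils and 46.4% of classical monocytes.

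Classical monocytes, the other circulating myeloid class built here, served as the comparison. They were kept cells with Ly6c2, Ccr2 and at least 5 Lyz2 UMIs, no Cd3 UMI and at most 2 C1q UMIs, 69 in FMC_new and 12 in C-ON. This class also held cells with dendritic cell genes, since 23 of the 69 had a Cd209a UMI. A gene was counted when its summed level differed by at least 4-fold and reached 10 CPM in either class. The neutrophils had been chosen from the same counts, so these folds are a description. In FMC_new, 8.63% of 9512 genes were higher in neutrophils and 7.4% were lower. The median gene with a UMI in both classes differed by -0.12 on the log2 scale. In both libraries at once, where 3 cells of C-ON decide, 0.695% of 7621 genes were higher and 0.499% were lower. Scaling by the median ratio in place of the total gave 34 higher and 48 lower genes in place of 53 and 38.

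Of 30 measured neutrophil identity genes outside the rule, 25 were at least 4-fold higher than in monocytes of FMC_new and none was 4-fold lower. Over all genes 8.63% were higher and 7.4% were lower. Wfdc21, a small whey acidic protein domain protein, had 1757 CPM in FMC_new neutrophils and 3261 in those of C-ON, and 0 UMIs in monocytes of either library. That is at least 349.9-fold and 105-fold higher against a floor of 3 UMIs over the class. Hdc, which makes histamine, was 146-fold higher in FMC_new (49.4 to 711), and G0s2, an inhibitor of triglyceride lipase, was 588-fold higher (105 to 23280). Pglyrp1, a bactericidal peptidoglycan receptor stored in granules, was found in 106 of 110 cells at 2883 CPM, 35.2-fold above monocytes (26.4 to 47.8), and at 1957 CPM in C-ON, 31.6-fold above monocytes there. The exceptions were Wfdc17, at 81.4 CPM against 281 in monocytes, and S100a11, Ifitm2, Srgn and Ccl6, which had folds between 1.21 and 3.78. In both libraries 15 of 29 measured identity genes passed, beside 0.695% of all genes.

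Secondary and gelatinase granule genes set the neutrophils apart from monocytes. Ngp (neutrophilic granule protein) had 12387 CPM in FMC_new, with 0 UMIs in the lowest cell, 8.5 in the median cell and 819 in the highest. Camp, the precursor of the antimicrobial peptide cathelicidin, had 8830 CPM, and Ltf, the iron-binding protein lactoferrin, had 2436 CPM. Lcn2, which binds bacterial siderophores, had 6676 CPM and was found in 93 cells. Each of these 4 had at most 3 UMIs over all 69 monocytes. Mmp8 (neutrophil collagenase) had 1447 CPM and Mmp9 (gelatinase B) 1037 CPM. In all, 12 of 14 listed genes of these granules were at least 4-fold higher than in monocytes, beside 8.63% of all genes. Chil3 and Cybb had folds of 2.60 and 1.07.

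Primary granule genes, which are transcribed at the promyelocyte stage, were close to absent. Mpo, Elane and Prtn3 had 1 UMI each over the 110 neutrophils, Ctsg had 0, and the 6 UMIs of Ms4a3 lay in 1 cell. Summed levels of 7 of 10 listed cell cycle genes were at least 4-fold lower than in monocytes, beside 7.4% of all genes. Mki67 was found in 4 neutrophils and Top2a in 5. The share of cells was not lower, since after thinning 6.36% of neutrophils and 5.80% of monocytes had a UMI of Mki67, Top2a or Birc5. The highest monocyte had 49 such UMIs before thinning and the highest neutrophil 6. The cells that met the rule in FMC_new carried transcripts of later granules and almost none of the first. The rule in part sets this, because its receptor threshold left out 11 kept cells with at least 20 alarmin UMIs. Of these, 1 had 126 UMIs of Elane, and Mki67 was found in 8.

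Ngp, Camp and Ltf lie on chromosome 9 (GRCm38), Ngp at 110419747 to 110423012 on the plus strand, Camp at 109847379 to 109849617 on the minus strand and Ltf at 111019271 to 111042767 on the plus strand. Il1b lies on chromosome 2 at 129364570 to 129371139 on the minus strand. In FMC_new neutrophils Ngp was found in 46 of 47 cells with Ltf, and Ltf in 46 of 76 cells with Ngp. Il1b was found in 26 of 76 cells with Ngp and 27 of 34 without. Sequences upstream of Ngp, Ltf and Il1b are shown from the RefSeq promoter table (GRCm38.p6), ending at the base before the annotated start. Capitals mark matches to TTGCNNAA, the core of sites bound by C/EBP factors, or to GAGGAA, a core bound by PU.1, searched on both strands. The first window is chr9:110419558-110419746 on the plus strand, the second chr9:111019042-111019270 on the plus strand and the third chr2:129371140-129371389 on the minus strand.
Ngp: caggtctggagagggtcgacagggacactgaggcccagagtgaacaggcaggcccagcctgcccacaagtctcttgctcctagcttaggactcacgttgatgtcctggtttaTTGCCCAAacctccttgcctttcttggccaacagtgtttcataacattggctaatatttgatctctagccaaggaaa
Ltf: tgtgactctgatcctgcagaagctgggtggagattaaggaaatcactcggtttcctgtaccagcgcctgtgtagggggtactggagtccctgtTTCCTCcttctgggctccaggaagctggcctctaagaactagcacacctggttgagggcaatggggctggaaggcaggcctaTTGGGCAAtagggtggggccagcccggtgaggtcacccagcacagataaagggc
Il1b: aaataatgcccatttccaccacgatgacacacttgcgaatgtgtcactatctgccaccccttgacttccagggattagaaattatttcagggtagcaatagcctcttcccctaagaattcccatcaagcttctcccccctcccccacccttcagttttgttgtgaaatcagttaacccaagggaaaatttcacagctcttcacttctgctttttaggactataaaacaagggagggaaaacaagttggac
The Ngp window held 1 match to TTGCNNAA, starting 77 bases before the gene, and the Ltf window held 1 match at 54 bases and 1 match to GAGGAA at 136 bases, both on the opposite strand. The Il1b window held no match to either. Among 32851 promoter windows of the same length, 7.76 to 9.56% held TTGCNNAA and 17.9 to 23.3% held GAGGAA. The matches are a description of letters and do not show binding.

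The granule genes divided the neutrophils. With Ltf, Camp, Ngp and Fcnb summed, 72 of 110 cells in FMC_new had at least 2 UMIs (65.5%, 55.8 to 74.3), 8 cells had 1 and 30 cells had 0, and after thinning to 1000 UMIs 66 cells did (50.2 to 69.2%). In other classes of FMC_new, 1.16 to 1.45% of cells reached 2 UMIs. The median cell had 12 of these UMIs and the highest 1716. The genes were found together: of 47 cells with Ltf, 44 had Camp and 46 had Ngp. In C-ON, 1 of 3 neutrophils had granule UMIs, 6 of Ngp and 3 of Camp, and the other two had 0.

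**Figure D2:**
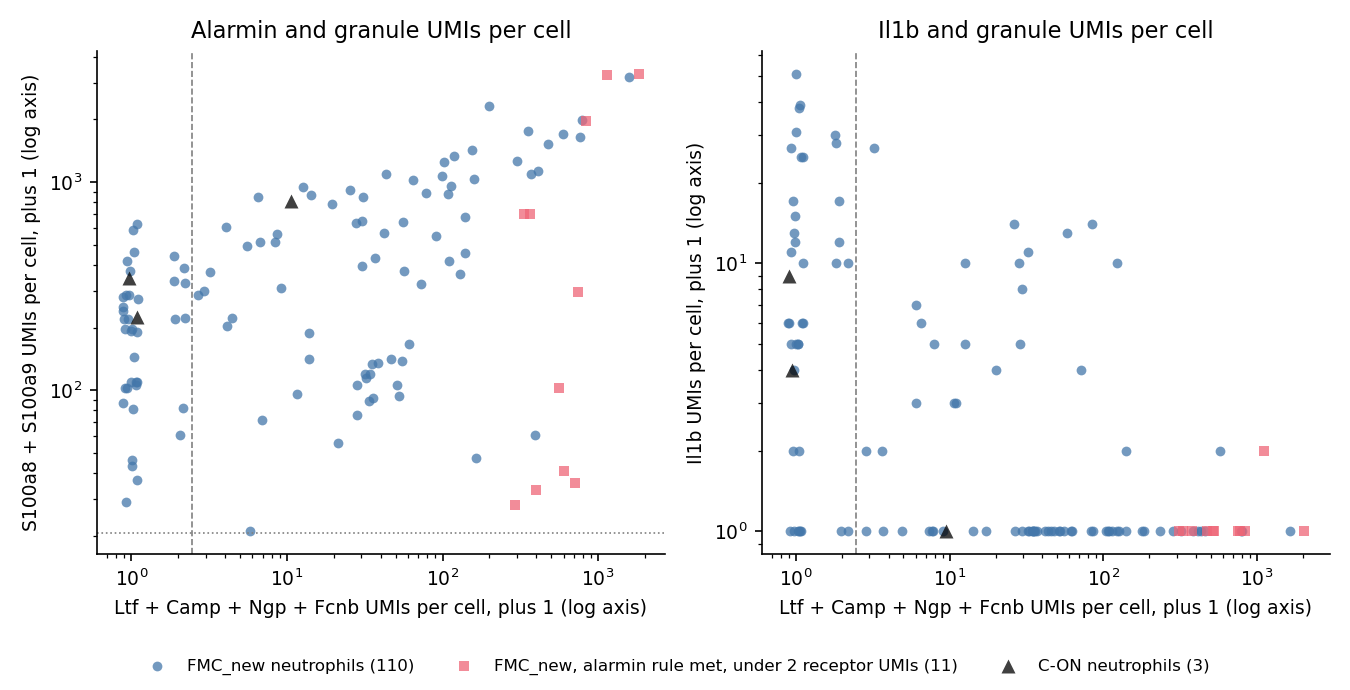
Each point is a cell, with the sum of Ltf, Camp, Ngp and Fcnb UMIs plus 1 on the horizontal axis, jittered, and the S100a8 and S100a9 sum plus 1 (left) or Il1b UMIs plus 1 (right) on the vertical axis, all on log axes. The dashed line separates 1 from 2 granule UMIs and the dotted line is the alarmin threshold of 20. Il1b was highest, at 50 UMIs, in a cell with 0 granule UMIs, and the 11 cells that met only the alarmin threshold had 280 to 1944 granule UMIs.

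Cells with at least 2 granule UMIs were compared with cells at 0, both thinned to 1000 UMIs, leaving out the 4 score genes and counting genes past 2-fold with at least 100 CPM on either side. Of 2183 genes, 11.5% were higher and 20% were lower in the granule cells. Of 10 other measured secondary and gelatinase granule genes, 7 were higher and none was lower. Lcn2 was 6.03-fold higher (4.37 to 8.53), with a UMI in 67 of 72 cells against 12 of 30. Chil3, a chitinase-like protein, was 9.31-fold higher (3.05 to 46.3), and Cd177, a neutrophil surface protein that binds platelet adhesion molecule 1, was 7.08-fold higher (2.29 to 35.5). Cybb, the catalytic subunit of the phagocyte oxidase, had 42 UMIs in 23 of 72 cells and 0 in the 30 others, at least 5.83-fold higher. Ly6g (6.39-fold, 2.05 to 32.1), Ly6c2 (5.25-fold), Anxa1 (3.33-fold) and Wfdc21 (2.45-fold) lay on the same side. Mmp8, Mmp9 and Pglyrp1 had folds of 1.67, 1.63 and 1.49 and did not pass.

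Interleukin 1 and chemokine genes lay on the other side. Il1b, the secreted form of interleukin 1 that is released after inflammasome cleavage, had a UMI in 17 of 72 granule cells and in 23 of 30 cells without granule UMIs, a fold of 0.119 (0.0844 to 0.166). Ccl6, a chemokine of myeloid cells, had a fold of 0.139 (13 of 72 cells against 24 of 30), and Cxcl2, a ligand of Cxcr2, of 0.167 (5 of 72 against 11 of 30). Nlrp3, the inflammasome sensor, had a fold of 0.172. In the lists, 4 of 5 measured chemokines and 8 of 13 cytokine and receptor genes were lower in the granule cells, beside 20% of all genes. In the other direction 1 cytokine gene, Osm, was higher (2.50-fold, 0.730 to 13.2), beside 11.5% of all genes. Csf3r (0.286), Il1r2, the decoy receptor (0.385), Cebpb (0.264), Slpi (0.339), Srgn (0.307) and Ifitm2 (0.162) were lower too, and 14 of 30 identity genes were lower against 3 higher. Cxcr2 had a fold of 0.567 (0.328 to 0.991) and did not pass.

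**Figure D3:**
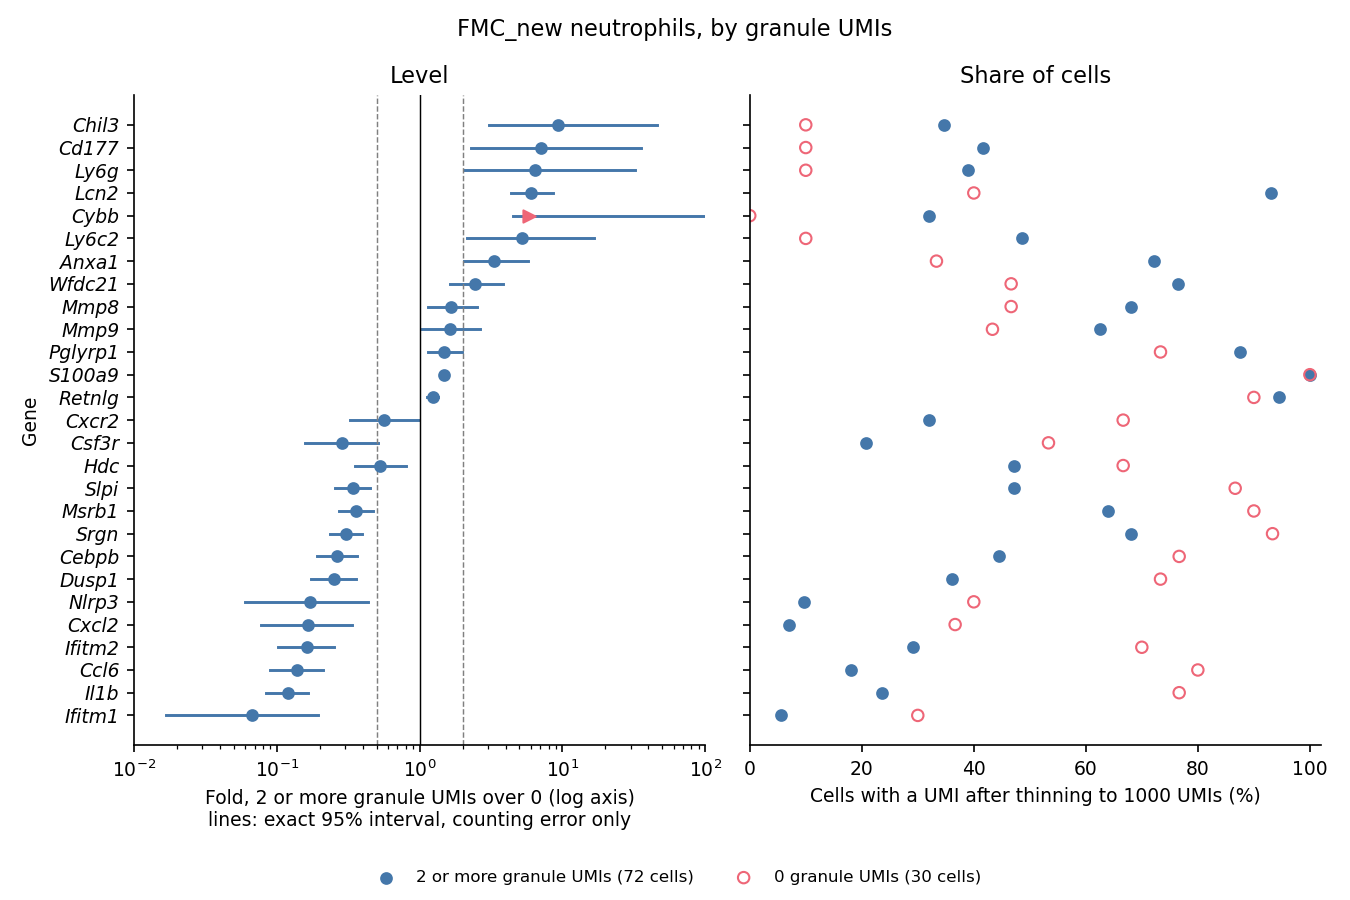
Left, fold of summed UMIs in the 72 FMC_new neutrophils with at least 2 granule UMIs over the 30 with 0, with exact 95% intervals and dashed lines at 2-fold, on a log axis; the triangle is a lower bound for Cybb. Right, share of cells of each set with a UMI. All cells were thinned to 1000 UMIs. Il1b was seen in 17 of 72 and 23 of 30 cells and Lcn2 in 67 of 72 and 12 of 30.

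The sets also differed in depth, with medians of 3280.5 UMIs in cells with at least 2 granule UMIs and 1651.5 in cells with 0, before thinning. The split was also seen in cells with under 2 UMIs of each of 6 other lineages, named further below, and under 20 of Jchain and Mzb1 together. They are called cells without another lineage, but could still hold single UMIs of such genes. These limits left 39 granule cells, 32 of them with Jchain after thinning, and 18 cells at 0. There the Il1b fold was 0.0271 (0.0107 to 0.0577), that of Ccl6 0.188, that of Lcn2 6.20 and that of Chil3 13.6 (3.61 to 115). The class II gene H2-Ab1 had a fold of 3.49 in all cells, and 2 UMIs on each side in the cells without another lineage.

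Il1b was found in 53 of the 110 neutrophils of FMC_new (0 UMIs in the lowest and median cells, 50 in the highest). Its level was 1500 CPM in FMC_new and 1794 CPM in C-ON, where the cells had 3, 0 and 8 UMIs. Over both libraries the level was 1504.5 CPM (1387 to 1629.8). Monocytes had 1436 CPM in FMC_new, and the fold was 1.04 (0.939 to 1.16), an interval that includes 1. Neutrophils were few, so they held 1.32% of the Il1b UMIs of kept FMC_new cells and 0.133% of those of C-ON. Summed CPM weighs large cells more, and with each cell weighed alike the level over both libraries was 2408 CPM. Il1r2, which binds interleukin 1 without signaling, was at 392 CPM, 7.80-fold above monocytes (5.25 to 11.9), and Il1rn, the receptor antagonist, was 6.65-fold higher (3.03 to 16.6).

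Among other cytokines and chemokines the neutrophils had low levels. Tnf was found in 14 cells, Il1a in 8, Vegfa in 6 and Il6 in 1, and Csf2 had 0 UMIs in the 110 cells, which by the floor of 3 counts allows up to 2.73% of cells with a UMI. Cxcl2 was found in 26 cells at 369 CPM, 10.0-fold above monocytes (6.37 to 16.5), and 24.1% of its UMIs lay in 1 cell. Ccl6 was found in 57 cells at 875 CPM. Ccl3, Ccl4 and Ccl5, which attract monocytes and T cells, had folds of 0.498, 0.367 and 0.535 in all neutrophils, and of 0.213, 0.189 and 0.160 in the 62 neutrophils without another lineage. Of 12 measured chemokines 3 were at least 4-fold higher and 3 lower, beside 8.63% and 7.4% of all genes. In those 62 cells 1 of 10 was higher and 8 were lower, beside 6.11% and 14.4% of all genes measured there. Ccl7 and Ccl12, both counted as higher in the whole set at 31.9-fold (5.13 to 1319) and 11.8-fold (4.16 to 45.9), had 1 and 0 UMIs in the 62 cells.

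Receptors that guide neutrophils separated them from monocytes. Fpr1, the high-affinity formyl peptide receptor, was found in 47 cells and no monocyte, at least 47.6-fold higher. Fpr2 was 83.6-fold higher (14.4 to 3359) and C5ar1, the receptor for complement fragment C5a, 114-fold higher (31.0 to 949). Ccr1 was 4.30-fold higher. Ccr2 was part of the monocyte rule and is not read. Cxcr4, which holds neutrophils in bone marrow and marks aged cells, was found in 22 cells at 73.7 CPM, a fold of 0.787 (0.484 to 1.25). Cxcr1 had 2 UMIs. In all, 5 of 13 measured receptors were at least 4-fold higher, Cxcr2 of the neutrophil rule among them, and 2 were lower, Ccr2 of the monocyte rule among them, beside 8.63% and 7.4% of all genes.

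Adhesion and recognition genes were mostly above monocytes by less than 4-fold. Itgam, the alpha chain of the integrin Mac-1, was 4.30-fold higher and Ceacam1 6.84-fold higher. Cd44 (2.50) and Itgb2 (1.79) had smaller folds. Of 14 measured pattern recognition and Fc receptors 5 passed, beside 8.63% of all genes. Among the 5 were Trem1, an amplifier of inflammatory signals, at 155-fold (27.2 to 6179.5), and the C-type lectins Clec4d at 17.6-fold and Clec4e at 8.81-fold. Tlr2, Tlr4 and Cd14 had folds of 1.29, 1.82 and 1.80.

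**Figure D4:**
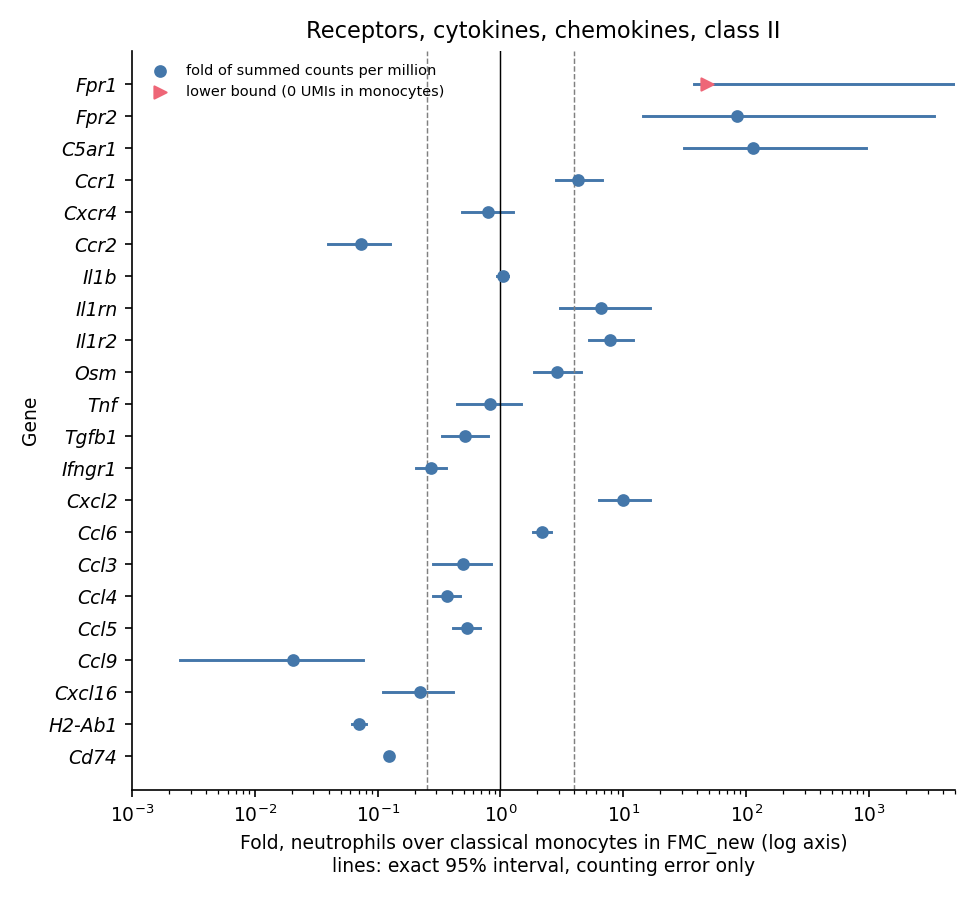
Fold of summed CPM in FMC_new neutrophils over FMC_new classical monocytes for chemotactic receptors, cytokines, chemokines and class II genes, on a log axis. Points are folds, lines are exact 95% intervals, the triangle is a lower bound against 0 monocyte UMIs, and dashed lines mark 4-fold. C5ar1 and Fpr2 lie far to the right, at 114 and 83.6, Il1b lies at 1.04, and H2-Ab1 and Cd74 lie at 0.0701 and 0.124.

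Genes of the oxidase complex were present but below the 4-fold limit. Cyba was found in 97 cells, Ncf1 in 76 and Ncf4 in 63, with folds between 1.10 and 3.32 over monocytes, and Rac2 had a fold of 3.34. No gene of the 6 passed in all neutrophils, and 3 passed in the 62 cells without another lineage, beside 8.63% and 6.11% of all genes. Of the transcription factors, Mxd1, a Myc antagonist, was 19.6-fold higher, and Cebpe, which drives secondary granule genes, 14.7-fold higher (4.55 to 75.3) though found in 15 cells. Cebpb had a UMI in 93 cells with a fold of 2.14, Spi1 (PU.1) in 84 with 1.45 and Gfi1 in 1.

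Antigen presentation genes were lower, at 5 of 7 in FMC_new and 4 of 7 in both libraries, beside 7.4% and 0.499% of all genes. The monocyte class also held cells with dendritic cell genes, 23 of 69 with Cd209a in FMC_new, and their part in these folds was not tested. Several ribosomal protein genes were among the 12 lowest folds in both libraries. H2-Ab1, H2-Aa, H2-Eb1 and Cd74 had folds of 0.0701, 0.0938, 0.0979 and 0.124 in FMC_new, and in C-ON the first 3 had 0 UMIs in neutrophils against 747 to 1124 UMIs in monocytes. In the 62 neutrophils without another lineage the folds were 0.00611 to 0.0101. Rps18, Rpl32, Rpsa, Rpl39, Rps20 and Rpl10a, components of the ribosome, had folds of 0.136 to 0.199 in FMC_new. In C-ON they had 1 to 4 UMIs each in neutrophils against 223 to 386 in monocytes. F13a1, a monocyte gene, had a fold of 0.0622 in FMC_new, and Fn1, another, had 0 UMIs in neutrophils against 188 in monocytes.

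Of the genes described for tumor and tissue neutrophils, 16 of 22 were measured, 3 were at least 4-fold higher than in monocytes and 1 was lower, beside 8.63% and 7.4% of all genes. Arg2, the mitochondrial arginase, was found in 32 cells, 41.0-fold higher (10.8 to 347). Cd84 was found in 57 cells (4.02-fold). Arg1, Nos2 and Tnfrsf10b had 0 UMIs in the 110 cells, and Cd274, which encodes the checkpoint ligand PD-L1, was found in 13. In the 62 cells without another lineage 4 of 15 genes were higher and 4 lower, beside 6.11% and 14.4% of all genes.

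Interferon-stimulated genes were found in few neutrophils. At least 2 UMIs of Isg15, Ifit1, Ifit2, Ifit3, Rsad2 and Oasl1 were found in 11 of 110 neutrophils of FMC_new (10.0%, 5.10 to 17.2) and in 0 of 3 of C-ON. After thinning the share was 4.55%, against 10.1% in monocytes, 7.61% in microglia, 5.01% in T cells and 4.15% in oligodendrocytes, and the neutrophil interval, 1.49 to 10.3%, holds the other shares. Of 17 measured interferon-stimulated genes 6 were at least 4-fold lower than in monocytes and 2 were higher, beside 7.4% and 8.63% of all genes. Bst2 had a fold of 0.153 and Irf7 of 0.189. Slfn4 was 74.4-fold higher (12.7 to 2999) and was found in 31 cells. In the 11 cells against the 79 with 0 score UMIs, 22.8% of 2084 genes were at least 2-fold higher and 6.09% were lower. Il1b was 2.87-fold higher there (2.07 to 3.94), Cebpb 3.12-fold, and Ngp had a fold of 0.276 and Camp of 0.202. Markers of other cells were higher there too, with 3 of 3 measured T cell markers and 4 of 5 antigen presentation genes, Cd74 at 2.60 and C1qa at 2.27 with its UMIs in 1 of the 11 cells. Of the cells without another lineage, 4 had at least 2 score UMIs and 48 had 0. There Il1b was 3.51-fold higher (2.17 to 5.48), with a UMI in 3 of the 4 cells and 18 of the 48. Cebpb was 3.73-fold higher (2.23 to 6.02), in 4 and 27 cells. Ngp had a fold of 0.0747 (0.0203 to 0.192), in 1 and 30 cells, and H2-Ab1 had 0 and 4 UMIs. This setting was added after the values were seen.

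Between the libraries, C-ON gave 3 cells to set beside 110. Genes were counted when the whole interval of the ratio was past 2-fold, and 0.237% of 5906 genes were higher in FMC_new and 0.508% were lower. These 14 and 30 genes became 51 and 6 when scaled by the median ratio, so the direction over all genes depends on the scaling. Camp was 18.1-fold higher in FMC_new (6.17 to 87.6), Ngp 12.7-fold (5.81 to 34.5), Lcn2 4.09-fold (2.22 to 8.55) and Ltf at least 4.98-fold, and these kept their side under the median ratio. The same library fold in T cells was at least 17.7 for Camp, at least 15.4 for Ngp and 3.37 for Ltf. T cell levels in FMC_new were low, at 14.0, 12.2 and 1.78 CPM. Whether the library difference was particular to neutrophils was not tested. In C-ON neutrophils, Camp had 3 UMIs and Ngp 6, all in 1 cell. Ccl6 had a fold of 0.233 (0.153 to 0.373) and Il1r2 of 0.185 (0.105 to 0.355), which became 0.575 and 0.456 under the median ratio, so neither was counted there. S100a8 had a fold of 0.537, which turned to 1.32 under the median ratio, and Il1b a fold of 0.836, which turned to 2.06. Gh was at least 55.1-fold higher in FMC_new with 83.3% of its UMIs in 1 cell, and immunoglobulin variable genes such as Igkv10-96 had 98.1% of theirs in 1 cell.

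Markers of other cells moved with some of these results and are given as measured. Of the 110 FMC_new neutrophils, 19 had at least 2 UMIs of Cd3d, Cd3e and Cd3g, 23 of C1qa, C1qb and C1qc, 6 of oligodendrocyte genes, 6 of microglial genes, 3 of B cell genes and 1 of Pdgfra and Neu4. In all, 48 cells had at least 2 UMIs of at least 1 of these 6 lineages. Over the 110 cells 8 of 9 T cell markers were measured and 6 were at least 4-fold higher than in monocytes, beside 8.63% of all genes. In the 62 remaining cells 1 of 5 was, beside 6.11% of all genes. The monocyte rule admitted no Cd3 UMI and at most 2 C1q UMIs, so part of this is set by the rule. C1qa had a fold of 65.0, and of 3.25 in the 62 cells. Those cells were limited to under 2 UMIs of the Cd3 genes and of the C1q genes. The lower values of T cell markers and C1qa in them therefore follow in part from that limit. Jchain and Mzb1 together reached 2 UMIs in 100 neutrophils of FMC_new and in 90.8% of the kept cells of that library. The part of doublets and of free RNA in these values was not tested.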

How the data were processed

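Per the labels, the authors prepared 2 libraries with the 10x Genomics 5′ v2 kit, 1 pool each, and their processing notes name Cell Ranger 7.2.0 and the mm10 build. The deposited matrices hold counts (UMIs per gene and barcode, not normalized). Barcodes were kept with 500 to 5000 genes, 500 to 20000 UMIs and at most 5% mitochondrial UMIs. UMIs were summed by library and class and scaled to CPM, with exact Clopper-Pearson and Poisson 95% intervals and a floor of 3 counts over a class. No p-value was computed, because each library is 1 sample and the counts chose the members. For comparisons of depth, cells were thinned to 1000 UMIs (seed 1). Between libraries, genes with at least 20 CPM in either were counted. No doublet caller was run. Cells at or above a UMI limit for another lineage were left out as alternatives, 1 of them added after the values were seen.

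Members and gene lists were chosen with earlier results of these data known. Named genes were all list genes, the 12 highest and 12 lowest folds in both libraries against monocytes, the 10 highest and lowest between libraries and the 10 highest per state. Gh, Igkv10-96 and C1qa are discussed for free RNA and other lineages. Coordinates come from GENCODE vM21 (GRCm38). Intervals came from scipy 1.17.1, tables from pandas 2.3.3 and numpy 2.4.6 under Python 3.11.15, and plots from matplotlib 3.10.9. The counting of genes past a fold was tested on simulated data. The symbols BC100530, Clec7a and Mx1 were not matched. A few genes are not reported here.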

Additional observations from a re-analysis of the deposited data

Results flagged for a closer look

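Barcodes outside the comparisons also carried neutrophil transcripts. In FMC_new, 6 barcodes outside the cell filters met the neutrophil rule, 3 with under 500 genes, 1 with over 5000 genes and 2 with over 20000 UMIs, and C-ON had none. A further 11 kept cells of FMC_new had at least 20 alarmin UMIs but under 2 receptor UMIs. These 11 had 280 to 1944 UMIs of Ltf, Camp, Ngp and Fcnb together, with Ngp at 137 to 531. Retnlg and Mmp8 had 0 UMIs in all 11, and Mki67, a marker of cycling cells, was found in 8 of them.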

How the results depend on the processing

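Of 86 alternative values, 55 stayed near the main value and 31 moved, and the causes were not tested. Leaving out either library moved the share from 0.0340 to 0.654%, the granule share from 33.3 to 65.5%, the interferon share from 0 to 10.0% and Il1b from 1500 to 1794 CPM. With 1 library left, the 4-fold limit had to be met in that library alone. This easier limit gave 189 to 821 genes higher than in monocytes and 76 to 704 lower, beside 53 and 38 in both libraries at once. Leaving out every member with 2 UMIs of any other lineage left 8 cells, because Jchain and Mzb1 were in 90.8% of kept FMC_new cells. The share was then 0.0312%, 20 genes were lower than in monocytes, 4 were higher and 8 lower between libraries, the granule share was 50%, the interferon share 0% and Il1b 5343 CPM. A limit of 20 UMIs for Jchain and Mzb1, added after seeing the data, left 65 cells and gave 0.253%, 61 lower than in monocytes, and 9 higher and 50 lower between libraries. Median-ratio scaling gave 34 genes higher than in monocytes and 51 and 6 between libraries. Thinning gave 20 higher and 20 lower than in monocytes, 5 higher between libraries, an interferon share of 4.42% and Il1b at 2380.5 CPM. An interferon score of 1 UMI gave 27.4%, a receptor sum of at least 4 gave Il1b at 1348 CPM, and the mean of the cells' own CPM gave 2408. No paired analysis was possible because there is 1 genotype label and 1 library on each side. The library comparison has no value without either library. In C-ON, 1 UMI equals 163 CPM, so genes near or below that level could be missed there.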

Other observations

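Primary granule transcripts were found in kept cells that the rule left out. In FMC_new, 3 kept cells had at least 10 UMIs of Mpo, Elane, Prtn3 and Ctsg together, with up to 230, and all 3 had at least 2 UMIs of the cell cycle genes Mki67, Top2a and Birc5. None was a neutrophil by the rule, and no neutrophil had more than 1 such UMI. Of the 11 cells left out by the receptor threshold, 1 had 126 UMIs of Elane and 12 of Mpo with 3315 alarmin UMIs and a receptor sum of 1, and another had 9 of Elane with 3249 alarmin UMIs, so the rule in part sets how few primary granule UMIs the neutrophils had. In all, 20 kept cells that were not neutrophils had at least 10 UMIs of Ltf, Camp, Ngp and Fcnb, beside 58 neutrophils. These counts were chosen after the values were seen.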
